A study of Mus musculus with 12 samples.

Results

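The genes that encode checkpoint ligands and costimulatory molecules followed here in myeloid-derived suppressor cells (MDSCs) numbered 10, with 6 of them inhibitory ligands (Cd274, Pdcd1lg2, Vsir, Pvr, Nectin2 and Lgals9) and 4 of them costimulatory molecules (Cd80, Cd86, Cd40 and Icosl). The rule that picks them is a list of gene names, chosen with earlier results of these data known. All 10 were found among the 35303 gene symbols of the count table, and all 10 were among the 17676 symbols that were tested because their counts, summed over the 12 libraries, reached 2. Against unmodified MDSCs, Cd274, Vsir, Cd80, Cd86, Icosl and Pdcd1lg2 rose both in MDSCs carrying blank nanoparticles (NPs) and in MDSCs carrying rapamycin NPs, while Cd274 and Cd80 were the members that also rose between the blank and the rapamycin NPs. The rises of Icosl and Pdcd1lg2 were small and did not hold when libraries were scaled by their totals alone. None of the 10 genes changed by a log2 fold change of 1 or more in any comparison.

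T cells receive inhibitory and costimulatory signals beside the signal of their antigen receptor, and both kinds come from ligands on neighboring cells. CD80 and CD86 engage CD28, which promotes T cell activation, and CTLA-4, which restrains it, whereas PD-L1 and PD-L2 engage the inhibitory receptor PD-1. MDSCs are immature myeloid cells that restrain T cells, in part through such ligands, and interferon and NF-κB signaling are known to raise several of these genes in myeloid cells.

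The cells were wild-type mouse bone marrow cells, taken by the study from female C57BL/6 mice, grown with GM-CSF and IL-6 and purified for CD11b and Gr1. The groups were unmodified MDSCs (MDSC), cells with blank poly(lactide-co-glycolide) NPs attached (MDSC-NP-Blk), and cells whose attached NPs release rapamycin, an inhibitor of the kinase mTOR (CITED). Each group had 4 libraries labeled as biological replicates. All 12 cultures received IL-6, for the same time in every group, before RNA was extracted. The purified cells were a mixture of polymorphonuclear and monocytic MDSCs, and the tissue field of the labels names the CNS, although the methods describe cultured marrow cells. MDSC-NP-Blk differed from MDSC by the conjugation steps and the NPs together, and whether the unmodified cells had also received the azido sugar used for conjugation is not given in the sources used here. CITED differed from MDSC-NP-Blk by the rapamycin. The labels do not say whether libraries came from separate mice, so p-values measure the spread between these libraries.

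Between 20604809 and 37855478 counts were assigned to genes per library, and libraries of a group varied by a biological coefficient of variation of 9.03%. The defining MDSC markers were all present in every group, with 9 of 9 genes above 0 and summed normalized counts of 617962 to 704336 in MDSC, 856654 to 910370 with blank NPs and 677096 to 769024 in CITED. With blank NPs, 9 of 9 rose against MDSC at an adjusted p below 0.05. Of all genes tested, 19.9% were higher and 18.6% lower there. In CITED, 6 rose and 1 fell against MDSC, where 22.2% of all genes were higher and 22.2% lower. Against MDSC-NP-Blk, 3 rose and 4 fell in CITED, where 10.5% of all genes were higher and 11.4% lower. These counts are for the main library scaling, and counts of these markers with library totals alone are not given. Csf3r, the G-CSF receptor gene, was at 4341 ± 390 (SD, n = 4) in MDSC. It was at 11005 ± 193 with blank NPs and 12631 ± 700 in CITED. Ly6c2, a marker of monocytic cells, went from 25702 ± 512 to 33669 ± 480 and 20232 ± 1292. Ly6g, a marker of polymorphonuclear cells, went from 3934 ± 104 to 4615 ± 435 and 4573 ± 137. The means of S100a8 were 263622, 331308 and 262759, and those of S100a9 were 282835, 385880 and 284272. Csf1r, listed with the macrophage markers below, had means of 11316, 21167 and 22570. The shares of the MDSC types were not tested. The MDSC-NP-Blk libraries fell into pairs. Replicates 1 and 4 differed from each other by a chi-square per degree of freedom of 6.01, and replicates 2 and 3 by 6.15, against 17.6 to 24.2 for libraries of different pairs and 4.81 to 10.3 within the other groups. No 2 libraries agreed within sampling noise. Across 10543 genes, the Spearman correlation of transcript length with a gene's count relative to its mean over the libraries was 0.218 to 0.346 in MDSC and −0.341 to −0.187 in CITED, while in MDSC-NP-Blk it was −0.422 and −0.243 for replicates 1 and 4 and −0.047 and 0.0922 for replicates 2 and 3. Mitochondrial transcripts took 1.88% to 2.13% of counts in MDSC, 1.5004% to 1.68% with blank NPs and 1.397% to 1.53% in CITED. Values with a correction for transcript length are given beside a result where they changed its call, and the part of mitochondrial RNA was not tested. The fold changes of the members on MDSC-NP-Blk were therefore also computed with each pair alone, and any call of a member that changed is given beside it. Library scaling also moved the comparisons with MDSC, because the TMM factors of the MDSC libraries, 1.12 to 1.15, lay apart from those of the NP-carrying libraries, 0.921 to 0.947. With library totals alone, the median log2 fold change of all tested genes shifted by −0.27 for CITED against MDSC and by −0.26 for MDSC-NP-Blk against MDSC. The percent of genes with an adjusted p below 0.05 that were higher then went from 49.99% to 25.7% and from 51.7% to 21.4%, respectively.

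Counted over the members, 7 of 10 had an adjusted p below 0.05 for CITED against MDSC (edgeR's quasi-likelihood test, Benjamini-Hochberg adjustment over all genes tested), 6 of them higher and 1, Pvr, lower. Over all 17676 genes tested, 44.5% passed this threshold, 22.2% higher and 22.2% lower. The split was, with library totals alone, 4 higher (Cd274, Vsir, Cd80 and Cd86) and 3 lower (Pvr, Nectin2 and Lgals9). With that scaling 8515 of all genes passed, 25.7% of them higher. The libraries of CITED and MDSC did not overlap for 6 members, all higher, against 21.2% of all genes not overlapping in the higher direction and 21.2% in the lower. For MDSC-NP-Blk against MDSC, 7 of 10 members passed, 6 higher and 1, Lgals9, lower, against 38.6% of all genes (19.9% higher and 18.6% lower). Here library totals alone gave 4 higher and 2, Lgals9 and Pvr, lower, against 7769 of all genes passing, 21.4% of them higher. The 7 members were also the ones that did not overlap between the groups, against a background of 18.1% higher and 17.4% lower. For CITED against MDSC-NP-Blk, 2 of 10 passed, both higher, against 22.0% of all genes (10.5% higher and 11.4% lower). Here 2 members did not overlap in the higher direction and 2, Pvr and Icosl, in the lower direction, against 10.4% and 10.8% of all genes. The share of members that passed was thus close to that of all tested genes in the comparison with the blank NPs. In both comparisons with MDSC it was above that share. The members were chosen with earlier results of these data known, so the difference is not a test of the list. Of the tested genes, 10556 had a mean normalized count of at least 50, as did all members except Cd40. The share passing among those genes was not computed, so the members are not set against genes of like counts. With a log2 fold change of 1 or more in either direction required as well, 0 of 10 members were called in each comparison, against 9.99%, 4.74% and 2.65% of all genes in the order in which the comparisons were just given. At an unadjusted p below 0.05 without a fold threshold, the members passing numbered 7, 7 and 4, and DESeq2 also called 0 members at the fold threshold. The shares of all genes at these settings are not given. The median log2 fold change of the members was 0.25, 0.31 and −0.02 in these comparisons, and that of all tested genes was −0.05, −0.03 and 0.00. MDSC was shared by 2 of the comparisons and MDSC-NP-Blk by 2, so their values are given side by side and are not independent.

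Among the inhibitory ligands, Cd274, which encodes PD-L1, rose with each step of the design. Its normalized counts, which are counts scaled to the mean library, were 3177, 3526, 3306 and 3491 in the 4 MDSC libraries. They were 4745, 4605, 4940.0 and 4950.3 with blank NPs and 5663, 6202, 6210.2 and 6218 in CITED. The groups did not overlap, and CITED replicate 1 lay below the other 3 CITED libraries but above every library of the other groups. The log2 fold change was 0.85 for CITED against MDSC (standard error 0.0508, 95% interval 0.74 to 0.95, edgeR adjusted p = 5.0e-16), a 1.80-fold rise. The value was 0.51 with blank NPs against MDSC (standard error 0.0507, edgeR adjusted p = 2.8e-10). Between CITED and MDSC-NP-Blk it was 0.34 (standard error 0.0504, 95% interval 0.23 to 0.44, edgeR adjusted p = 2.9e-06). These calls held under every alternative that was run, with log2 fold changes of 0.57 to 0.92, 0.25 to 0.56 and 0.32 to 0.37 in the same order. In bulk RNA, more cells that express a gene and more RNA per cell cannot be told apart. Cd274 (chromosome 19, 29344529 to 29365495, plus strand, GRCm39) shares 5.37% of its exonic bases with Plgrkt and 14.2% with the noncoding Gm36043, both on the opposite strand, and whether the libraries kept strand is not given in the sources used here. Plgrkt, a plasminogen receptor gene, rose by 0.42 on the log2 scale in CITED against MDSC (edgeR adjusted p = 2.6e-06) and by 0.30 against MDSC-NP-Blk (edgeR adjusted p = 9.5e-04), and its log2 fold change for MDSC-NP-Blk against MDSC was 0.12 (edgeR adjusted p = 0.174). Whether shared reads contributed to the Cd274 values was not tested.

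Vsir, which encodes VISTA, an inhibitory ligand of myeloid cells, had the highest counts of the 10 genes. The gene lies on chromosome 10, from 60182630 to 60208463 on the plus strand. Its normalized counts were 15722, 16478, 15952 and 15691 in MDSC, 24715, 23657, 22585 and 24636 with blank NPs and 23549.8, 23247, 24615 and 23974 in CITED. Every NP-carrying library was above every MDSC library, and the libraries with blank and with rapamycin NPs covered much the same range. Vsir rose by 0.58 on the log2 scale in MDSC-NP-Blk against MDSC (standard error 0.0431, edgeR adjusted p = 2.7e-13) and by 0.58 in CITED against MDSC (standard error 0.0431, edgeR adjusted p = 1.4e-13). Between CITED and MDSC-NP-Blk the difference was −0.0030 with a 95% interval of −0.0904 to 0.0843 (edgeR adjusted p = 1), so a rapamycin-linked change of more than 0.0904 in either direction lay outside the interval. Both rises over MDSC held under every alternative, down to 0.31 for CITED and 0.32 for MDSC-NP-Blk with library totals alone.

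Pdcd1lg2 encodes PD-L2 and lies next to Cd274 on chromosome 19 (29388319 to 29448882, plus strand). It had normalized counts of 376, 454, 448 and 409 in MDSC, 531, 585, 459 and 482 with blank NPs and 527, 519.7, 488 and 483 in CITED. The highest MDSC library was within 5 counts of the lowest MDSC-NP-Blk library. Pdcd1lg2 rose by 0.26 in CITED (standard error 0.0917, edgeR adjusted p = 0.0200) and by 0.29 in MDSC-NP-Blk (standard error 0.0911, edgeR adjusted p = 0.0098) against MDSC on the log2 scale. Neither call held with library totals alone, where the values were −0.02 (edgeR adjusted p = 0.925) and 0.03 (edgeR adjusted p = 0.840), or with a correction for transcript length, where they were 0.11 (edgeR adjusted p = 0.3199) and 0.17 (edgeR adjusted p = 0.1495). The calls were also lost without MDSC replicate 1 (edgeR adjusted p = 0.0964 and 0.0567), for CITED without CITED replicate 1 (0.0558), and for the blank NPs without MDSC-NP-Blk replicate 2 (0.0777) or with MDSC-NP-Blk replicates 1 and 4 alone (0.0633). Against MDSC-NP-Blk, the difference of CITED was −0.03 (95% interval −0.22 to 0.15, edgeR adjusted p = 0.876).

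Pvr, which encodes CD155, and Nectin2, its relative on the same chromosome, are ligands of the inhibitory receptor TIGIT and of the activating receptor CD226. Pvr lies at 19637503 to 19655085 and Nectin2 at 19450569 to 19484408 on chromosome 7, both on the minus strand. Pvr had normalized counts of 451, 411, 456 and 338 in MDSC, 388, 386, 391 and 454 with blank NPs and 337, 325, 359.7 and 341 in CITED. CITED lay below all MDSC-NP-Blk libraries and below 3 of the 4 MDSC libraries, and MDSC replicate 4 and MDSC-NP-Blk replicate 4 lay apart from their groups. Pvr was the member that fell in CITED against MDSC, by 0.28 on the log2 scale (standard error 0.0998, 95% interval −0.49 to −0.08, edgeR adjusted p = 0.0194). That call was lost when MDSC replicate 1, MDSC replicate 3 or CITED replicate 2 was left out, with an adjusted p of up to 0.0825. Against MDSC-NP-Blk the difference was −0.25 (95% interval −0.45 to −0.04, edgeR adjusted p = 0.0811), and MDSC-NP-Blk differed from MDSC by −0.04 (95% interval −0.24 to 0.16, edgeR adjusted p = 0.810). Scaled by library totals alone, Pvr was at −0.56 for CITED (edgeR adjusted p = 1.58e-05) and at −0.30 for the blank NPs (edgeR adjusted p = 0.0127) against MDSC. Nectin2 passed in no comparison. Its normalized counts were 285, 344, 259.7 and 337 in MDSC, 378, 323, 306 and 398 with blank NPs and 255, 359.5, 325 and 239 in CITED, and all groups overlapped. Its log2 fold changes were −0.06 for CITED against MDSC (95% interval −0.31 to 0.20), 0.19 for MDSC-NP-Blk against MDSC (−0.05 to 0.44) and −0.25 for CITED against MDSC-NP-Blk (−0.51 to 0.0014). The last of these was −0.40 with MDSC-NP-Blk replicates 1 and 4 alone (edgeR adjusted p = 0.0348) and −0.36 without CITED replicate 2 (edgeR adjusted p = 0.0465), and the first was −0.33 with library totals alone (edgeR adjusted p = 0.0283).

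Lgals9 encodes galectin-9, a lectin that binds the receptor TIM-3, and lies on chromosome 11 from 78853800 to 78875798 on the minus strand. Its normalized counts were 2846, 2965, 2900.4 and 2893 in MDSC, 2650.5, 2432, 2376 and 2622 with blank NPs and 2679, 2572, 2886 and 2954 in CITED. MDSC-NP-Blk lay below MDSC without overlap, and CITED spread over both. Lgals9 fell by 0.20 on the log2 scale in MDSC-NP-Blk against MDSC (standard error 0.0556, edgeR adjusted p = 0.0032), and the call held under every alternative. In CITED against MDSC the log2 fold change was −0.06 (95% interval −0.18 to 0.05, edgeR adjusted p = 0.367), but it was −0.25 with the length correction (edgeR adjusted p = 4.89e-05) and −0.34 with library totals alone (edgeR adjusted p = 3.9e-06). Against MDSC-NP-Blk it was 0.14 (95% interval 0.03 to 0.25, edgeR adjusted p = 0.0737). DESeq2 gave an adjusted p of 0.0332, and edgeR with its own expression filter (filterByExpr) gave 0.0461. Leaving out CITED replicate 2 gave 0.18 (edgeR adjusted p = 0.0307), and leaving out MDSC-NP-Blk replicate 1 gave 0.165 (edgeR adjusted p = 0.0359). MDSC-NP-Blk replicates 2 and 3 alone gave 0.21 (edgeR adjusted p = 0.0071) where replicates 1 and 4 gave 0.07 (edgeR adjusted p = 0.488).

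**Figure D1:**
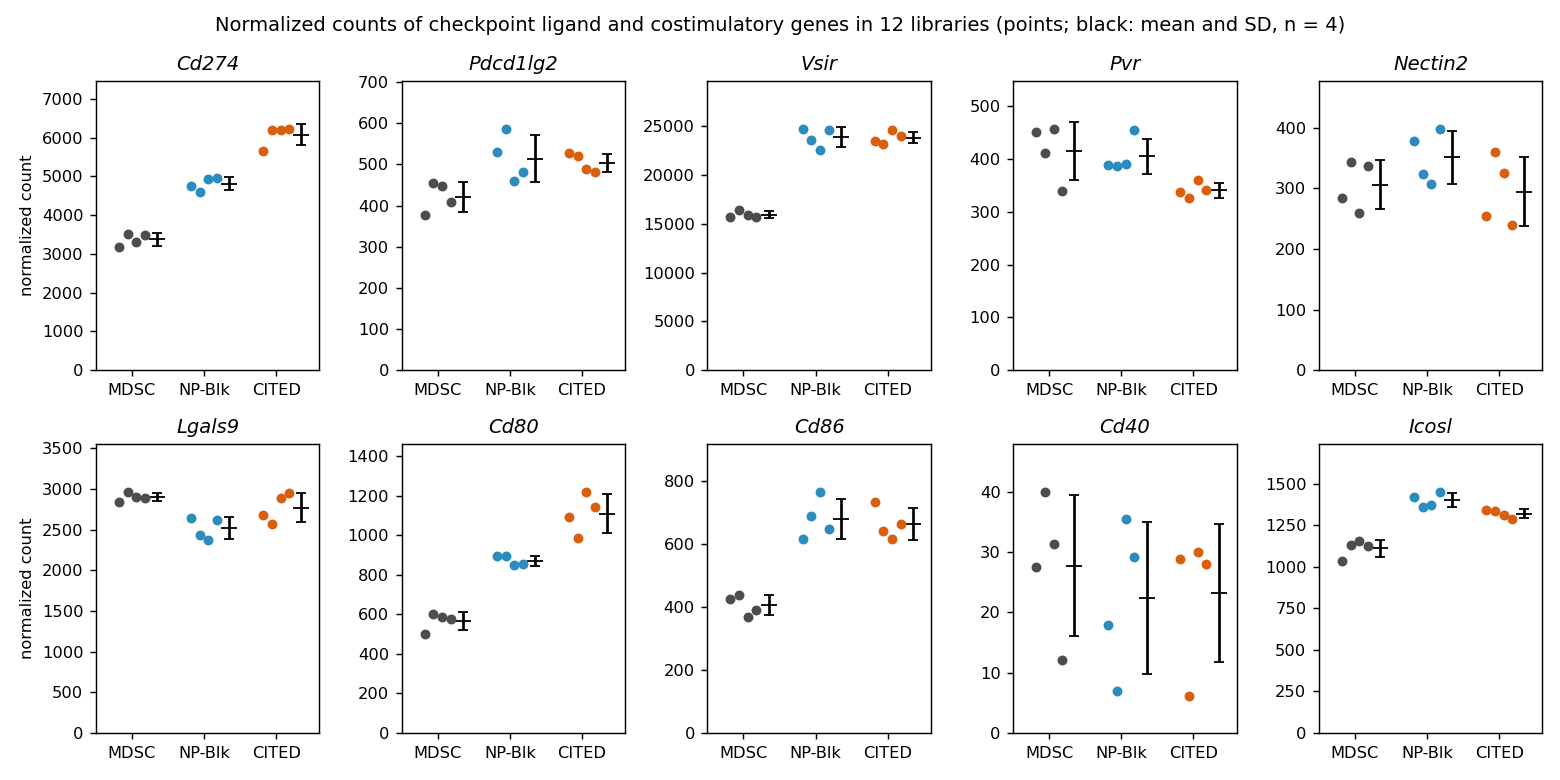
Normalized counts (vertical axis, from 0) of the 10 genes in each of the 12 libraries, with 1 panel per gene and 1 point per library; black marks give the mean and SD of the 4 libraries of a group, and NP-Blk stands for MDSC-NP-Blk. Cd274 and Cd80 step up from MDSC to NP-Blk to CITED without overlap, Vsir, Cd86 and Icosl are higher in both NP groups than in MDSC, and Cd40 stays at 40 normalized counts or fewer in every library. Under scaling by library totals, the rises of Icosl and Pdcd1lg2 over MDSC no longer pass in either NP group.

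Among the costimulatory molecules, Cd80 had the largest log2 fold change of the 10 genes for CITED against MDSC, except with the length correction, where it was 0.80 and that of Cd274 was 0.92. CD80 engages CD28 and CTLA-4 on T cells and also binds PD-L1 on the same cell. It had normalized counts of 499, 601, 584 and 575 in MDSC, 893, 894, 847 and 853 with blank NPs and 1089.8, 988, 1219 and 1142 in CITED. The 3 groups did not overlap, and the spread was widest in CITED (SD 96.9) and narrowest in MDSC-NP-Blk (SD 25.1). Cd80 rose by 0.98 on the log2 scale in CITED against MDSC (standard error 0.0781, 95% interval 0.82 to 1.14, edgeR adjusted p = 8.8e-13), a 1.97-fold rise. It rose by 0.63 in MDSC-NP-Blk against MDSC (standard error 0.0783, edgeR adjusted p = 3.8e-08). It rose by 0.35 in CITED against MDSC-NP-Blk (standard error 0.0767, 95% interval 0.19 to 0.50, edgeR adjusted p = 7.2e-04). These calls held under every alternative, with log2 fold changes of 0.70 to 1.03, 0.37 to 0.66 and 0.30 to 0.40. With MDSC replicate 2 or CITED replicate 2 left out, the value for CITED against MDSC passed 1, so that Cd80 was then called with the fold threshold as well. Cd80 (chromosome 16, 38275923 to 38316697, plus strand) shares 6.68% of its exonic bases with Timmdc1, a mitochondrial complex I assembly gene on the opposite strand. Timmdc1 rose by 0.40 on the log2 scale in CITED against MDSC (edgeR adjusted p = 0.0039), and the log2 fold change was 0.27 for CITED against MDSC-NP-Blk (edgeR adjusted p = 0.0890) and 0.13 for MDSC-NP-Blk against MDSC (edgeR adjusted p = 0.412). The part of shared reads in the Cd80 values was not tested.

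Cd86, on chromosome 16 as well (36424044 to 36486443, minus strand), encodes the other ligand of CD28 and CTLA-4. In normalized counts it was at 425, 437, 369 and 391 in MDSC, 616, 689, 765 and 647 with blank NPs and 732, 641, 617 and 665 in CITED. Both NP groups lay above MDSC without overlap, and their own ranges overlapped widely. Cd86 rose by 0.75 on the log2 scale in MDSC-NP-Blk (standard error 0.0867, edgeR adjusted p = 8.7e-09) and by 0.71 in CITED (standard error 0.0871, edgeR adjusted p = 1.6e-08) against MDSC, in every alternative. Between CITED and MDSC-NP-Blk the difference was −0.04 (95% interval −0.21 to 0.14, edgeR adjusted p = 0.844). The 2 ligands of CD28 therefore had values of 0.35 for Cd80 and −0.04 for Cd86 in this comparison, and the test of their ratio is given below.

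Icosl (chromosome 10, 77905136 to 77919747, plus strand), which encodes the ligand of the costimulatory receptor ICOS, had normalized counts of 1037, 1131, 1154 and 1122 in MDSC, 1418, 1360.5, 1373 and 1450.1 with blank NPs and 1344, 1337, 1312 and 1287 in CITED. Both NP groups were above MDSC, and CITED was below MDSC-NP-Blk without overlap. Icosl rose by 0.33 on the log2 scale in MDSC-NP-Blk (standard error 0.0623, edgeR adjusted p = 3.9e-05) and by 0.25 in CITED (standard error 0.0626, edgeR adjusted p = 0.0012) against MDSC. With library totals alone these values were 0.07 (edgeR adjusted p = 0.386) and −0.03 (edgeR adjusted p = 0.776), so neither call held. The difference between CITED and MDSC-NP-Blk was −0.09 (95% interval −0.21 to 0.04, edgeR adjusted p = 0.383).

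Cd40 (chromosome 2, 164897544 to 164914868, plus strand), which encodes the receptor through which helper T cells activate antigen-presenting cells, was near the lower end of what could be measured. Its normalized counts were 27.5, 40.0, 31.3 and 12.1 in MDSC, 17.9, 6.90, 35.4 and 29.2 with blank NPs and 28.8, 6.11, 30.0 and 28.1 in CITED. The groups overlapped fully, and within each of them 1 or more libraries lay far below the rest. The log2 fold changes were −0.25 for CITED against MDSC (95% interval −1.22 to 0.72, edgeR adjusted p = 0.715), −0.33 for MDSC-NP-Blk against MDSC (−1.31 to 0.64) and 0.09 for CITED against MDSC-NP-Blk (−0.91 to 1.08). At these counts, changes smaller than about a doubling or a halving were not detectable.

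**Figure D2:**
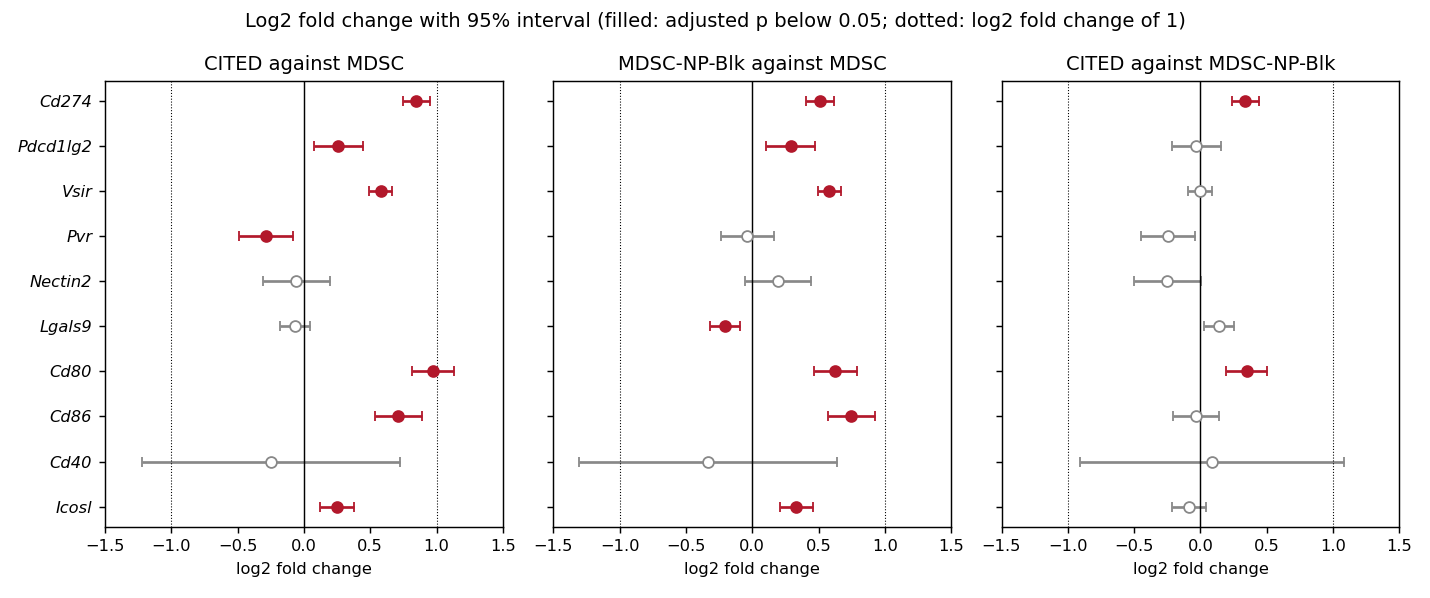
Log2 fold change (horizontal axis) of the 10 genes in the 3 comparisons, with 95% intervals from edgeR's quasi-likelihood fit; filled points have an adjusted p below 0.05, and dotted lines mark a log2 fold change of 1 in either direction. In the panel of CITED against MDSC-NP-Blk, Cd274 (0.34) and Cd80 (0.35) are filled, and the interval of Vsir lies within −0.0904 to 0.0843. With library totals alone, Pdcd1lg2 and Icosl turn from higher to −0.02 and −0.03 in CITED against MDSC, and Nectin2 from 0.19 to −0.07 in MDSC-NP-Blk against MDSC.

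Levels of different genes were compared per transcript length, as TPM (a share of all transcripts, scaled to the same total in each library) computed from the counts and the length of each gene's canonical transcript. In MDSC, the mean level was 315 TPM for Vsir, 180 TPM for Lgals9, 81.9 TPM for Cd274, 37.8 TPM for Icosl, 31.8 TPM for Cd80, 20.5 TPM for Pdcd1lg2, 14.2 TPM for Cd86, 13.7 TPM for Pvr, 10.7 TPM for Nectin2 and 0.884 TPM for Cd40. The SDs of the 4 libraries ran from 0.360 TPM for Cd40 to 6.46 TPM for Vsir. The ranges of neighbors in this order did not overlap except for Cd86 with Pvr and Pvr with Nectin2. Among the 17648 tested genes found in the annotation, Vsir stood at the 97.6th percentile and Cd40 at the 34.8th. The inhibitory ligands Vsir, Lgals9 and Cd274 thus held the first 3 places, and they did so in all 3 groups.

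The order changed in the NP groups at Cd80. In MDSC-NP-Blk, Cd80 (37.6 ± 1.08 TPM, SD, n = 4) and Icosl (36.5 ± 0.915 TPM, SD, n = 4) overlapped. In CITED, Cd80 (48.2 ± 4.55 TPM, SD, n = 4) lay above Icosl (34.6 ± 0.780 TPM, SD, n = 4) without overlap. Cd274 reached 114 ± 7.98 TPM (SD, n = 4) in CITED, below Lgals9 with 132 ± 10.1 TPM (SD, n = 4). The ranks of Cd80 and Icosl depended on the transcript length, since with the longest or the median transcript length of each gene the mean of Cd80 stayed below that of Icosl in all groups. TPM values carry no scaling between groups, so changes between groups are read from the normalized counts.

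**Figure D3:**
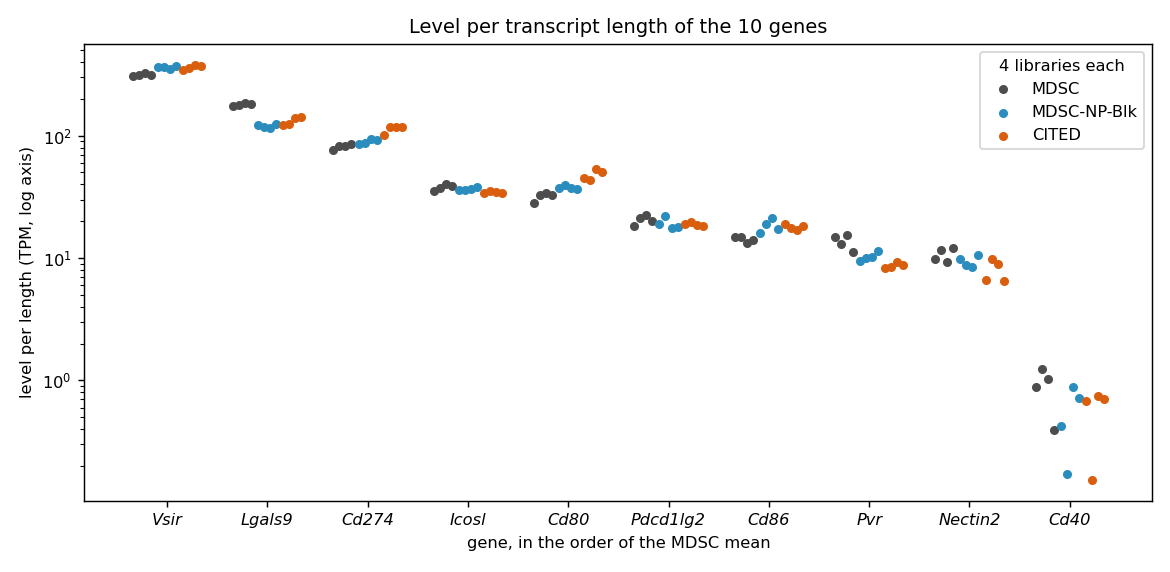
Level per transcript length (vertical axis, TPM, log scale) of the 10 genes in each of the 12 libraries, with genes in the order of their MDSC mean. Vsir, Lgals9 and Cd274 are the 3 highest in every group, Cd40 is near 1 TPM or below, and Cd80 moves from below Icosl in MDSC to above it in CITED with the canonical transcript lengths used here.

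Ratios of 2 members within a library do not depend on library scaling, and 3 of them were tested in the 3 comparisons with exact 2-sided permutation tests, adjusted over the 9 tests. With 4 libraries against 4, the smallest p such a test can give is 0.0286. The ratio of Cd274 to Cd80, which bind each other as proteins on the same cell, was 5.99 ± 0.300 (SD, n = 4) in MDSC, 5.52 ± 0.343 with blank NPs and 5.50 ± 0.536 in CITED. The groups overlapped for this ratio, and no test passed (exact permutation p = 0.143 and 0.114 for CITED and for blank NPs against MDSC, and 0.943 between the NP groups). The ratio of Cd80 to Cd86 was 1.401 ± 0.172 in MDSC, 1.29 ± 0.141 with blank NPs and 1.68 ± 0.219 in CITED. The libraries of CITED lay at 1.49, 1.54, 1.97 and 1.72, and those of MDSC-NP-Blk at 1.45, 1.30, 1.11 and 1.32, with no overlap (exact permutation p = 0.0286, adjusted p = 0.129). The ratio of Cd274 to Pdcd1lg2, the 2 ligands of PD-1, was 8.03 ± 0.555 in MDSC, 9.45 ± 1.31 with blank NPs and 12.1 ± 0.971 in CITED. Its 4 CITED libraries, from 10.7 to 12.9, lay above the 4 MDSC libraries, from 7.38 to 8.54 (exact permutation p = 0.0286, adjusted p = 0.129). CITED and MDSC-NP-Blk overlapped for this ratio (exact permutation p = 0.0571, adjusted p = 0.171). None of the 9 tests passed after adjustment, a threshold that this design reaches only if several of the ratios separate completely.

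**Figure D4:**
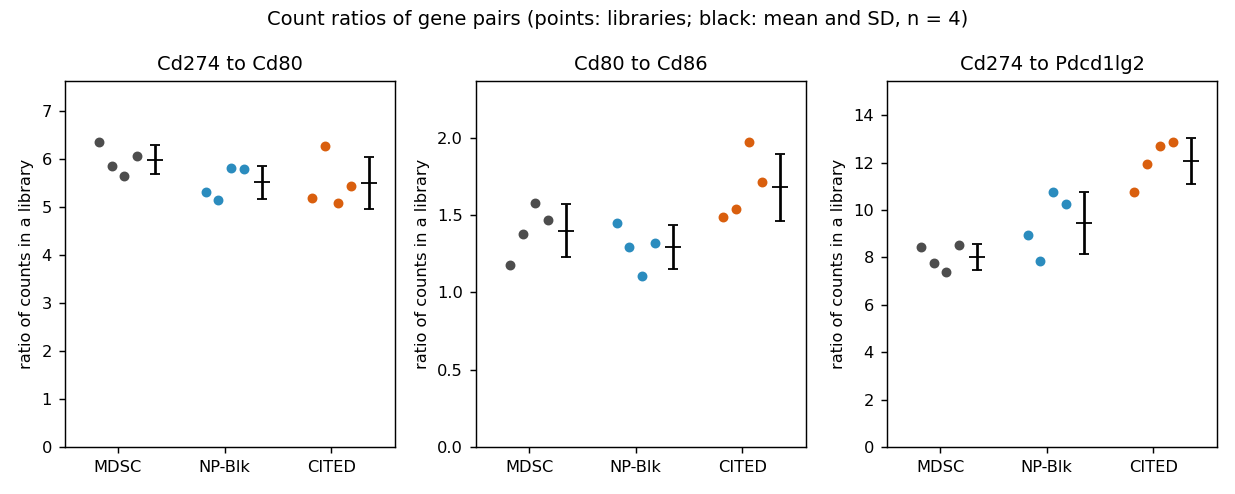
Ratio of the counts of 2 genes within a library (vertical axis, from 0) for 3 pairs of members; points are libraries, and black marks give the mean and SD of the 4 libraries of a group. The ratio of Cd274 to Pdcd1lg2 runs from 7.38 to 8.54 in MDSC and from 10.7 to 12.9 in CITED, while the groups overlap for Cd274 to Cd80.

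Stretches before the start of the canonical transcript of 4 members are shown because these genes moved in the data, Cd274 and Cd80 at both steps and Cd86 and Vsir with the NPs alone. They were read from GRCm39, run 5′ to 3′ on the strand of the gene, and stop before any other annotated exon of the same gene, which shortens those of Cd80 and Cd86 from 250 bases to 168 and 246. The canonical transcript of Cd80 starts at 38279295, inside the gene as annotated, because another transcript starts farther upstream. Capitals mark letters that match 1 of 4 searched motifs on either strand, namely the interferon response core GAAANNGAA, the STAT site TTCNNNGAA, the NF-κB site GGNNNTTCC and the AP-1 site TGANTCA.
Cd274, chr19:29344279-29344528, plus strand: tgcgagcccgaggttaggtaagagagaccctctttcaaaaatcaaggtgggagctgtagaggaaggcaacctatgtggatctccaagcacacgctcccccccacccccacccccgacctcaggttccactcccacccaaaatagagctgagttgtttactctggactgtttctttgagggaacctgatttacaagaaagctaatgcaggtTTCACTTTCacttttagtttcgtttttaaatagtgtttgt
Cd80, chr16:38279045-38279212, plus strand: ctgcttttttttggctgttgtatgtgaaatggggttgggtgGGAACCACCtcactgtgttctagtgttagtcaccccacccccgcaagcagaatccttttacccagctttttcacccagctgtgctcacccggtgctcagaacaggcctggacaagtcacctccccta
Cd86, chr16:36486444-36486689, minus strand: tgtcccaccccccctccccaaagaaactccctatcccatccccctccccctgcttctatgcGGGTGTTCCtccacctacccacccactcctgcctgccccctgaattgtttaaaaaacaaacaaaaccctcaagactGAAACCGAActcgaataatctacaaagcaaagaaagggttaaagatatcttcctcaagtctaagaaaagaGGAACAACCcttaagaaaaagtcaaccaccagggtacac
Vsir, chr10:60182380-60182629, plus strand: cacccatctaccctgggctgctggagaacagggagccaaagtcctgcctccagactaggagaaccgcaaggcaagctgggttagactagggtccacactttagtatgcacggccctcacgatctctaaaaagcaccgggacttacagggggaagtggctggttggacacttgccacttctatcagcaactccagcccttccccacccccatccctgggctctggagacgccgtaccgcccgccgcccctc
The capitals are an interferon response core in Cd274, an NF-κB match in Cd80, and 2 NF-κB matches around an interferon response core in Cd86, whereas the stretch of Vsir holds none of the 4 motifs. In the full windows of 300 bases (250 before to 50 after the start), the interferon response core was found in 3 of 10 members (Cd274, Cd86 and Lgals9), against 8.8% of 21432 promoters of protein-coding genes. The NF-κB letters were found in 5 of 10 (Cd40, Cd80, Cd86, Lgals9 and Nectin2) against 19.1%, the AP-1 letters in 1 of 10 (Cd80, 42 bases before its start) against 7.13%, and the STAT letters in 0 of 10 against 8.77%. Pdcd1lg2, Vsir, Pvr and Icosl held no match. Lgals9, which holds both the interferon response core and the NF-κB letters, did not rise, and Vsir, which holds none of the letters in this window, did. Whether a match bears on a change was not tested. A match describes letters and not binding. In the RefSeq table of promoters on GRCm38.p6, 7 of the 10 members were found, and the start of Cd274 lay 309 bases downstream there.

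Known regulators of these genes were measured in the same libraries, as a list of 23 genes of the interferon, NF-κB, AP-1 and hypoxia pathways. For CITED against MDSC, 17 of 23 rose and 2 fell at an adjusted p below 0.05, with a median log2 fold change of 0.76 against −0.05 for all tested genes. Of all genes tested, 22.2% were higher and 22.2% lower in this comparison. The shares were 19.9% and 18.6% for MDSC-NP-Blk against MDSC, and 10.5% and 11.4% for CITED against MDSC-NP-Blk. They apply to the lists below as well. They include genes of low counts, whereas all 23 regulators had a mean normalized count of at least 50. The lists were chosen with earlier results of these data known, so setting them beside these shares does not test them. The genes called at the fold threshold were Fos (1.399), an AP-1 subunit, Irf7 (1.38) and Irf9 (1.02), interferon response factors, Relb (1.23), Nfkb2 (1.11) and Rela (1.10), NF-κB subunits, and Ciita (−1.05), the activator of MHC class II genes. The normalized count of Relb was 913 ± 117 (SD, n = 4) in MDSC, 1979 ± 136 with blank NPs and 2146 ± 80.5 in CITED, and that of Irf7 was 289 ± 11.7, 485 ± 30.5 and 750.03 ± 55.0. For MDSC-NP-Blk against MDSC, 18 rose and 2 fell, with a median of 0.41, and Fos (1.27) and Relb (1.12) were called. For CITED against MDSC-NP-Blk, 7 rose and none fell, with a median of 0.13, no gene was called at the fold threshold, and the 3 with the lowest p were Irf9 (0.62, edgeR adjusted p = 2.1e-08), Irf7 (0.63, edgeR adjusted p = 2.9e-07) and Hif1a (0.41, edgeR adjusted p = 1.5e-06), the hypoxia-responsive factor. With library totals alone, all of these values are lower by about the shift given for the comparisons with MDSC.

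Other inhibitory ligands, 16 of 18 listed being tested, moved in both directions. For CITED against MDSC, 4 rose and 2 fell, with a median log2 fold change of −0.06. H2-T23, which encodes the NKG2A ligand Qa-1b, rose by 1.30 on the log2 scale, from 2668 ± 125 (SD, n = 4) normalized counts in MDSC to 6564 ± 271 in CITED, and Lgals3, a galectin gene, rose by 1.04. Cd276, which encodes B7-H3, had a log2 fold change of −2.75 at low counts, 46 to 80 in MDSC libraries and 1 to 13 in CITED. For MDSC-NP-Blk against MDSC, 3 rose and 3 fell, and Cd276 (−1.94) was called. For CITED against MDSC-NP-Blk, 4 rose and 1 fell, led by Lgals3 (0.48), H2-T23 (0.49) and Lgals1 (0.44) upward and Ceacam1 (−0.29), a TIM-3 ligand gene, downward. Fasl, named here after its values were seen because the study stained its protein CD95L, had 0 to 2 counts in the MDSC libraries and 0 in the 8 others, so no fold is given.

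Other costimulatory ligands, 14 of 16 listed being tested, also moved in both directions. For CITED against MDSC, 5 rose and 2 fell, with a median of 0.06. Tnfsf9, which encodes the 4-1BB ligand, rose by 1.29 on the log2 scale, from 148 ± 12.3 to 361 ± 53.6 normalized counts (SD, n = 4), and Tnfsf13b, which encodes the B cell factor BAFF, fell by 1.84, from 183 ± 15.5 to 51.5 ± 18.9. For MDSC-NP-Blk against MDSC, 5 rose and 1 fell, led by Icam1 (0.65), Tnfsf9 (0.91) and Tnfsf14 (0.46) upward and Tnfsf13b (−0.78) downward, none of them past the fold threshold. For CITED against MDSC-NP-Blk, 3 rose and 3 fell, and Tnfsf13b was called (−1.07, edgeR adjusted p = 7.4e-05).

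A list of 15 receptors, T cell and NK cell genes for the most part, holds receptors that bind the members and also Lag3, Btla and Cd160, whose best-known ligands are not among the members. Of the 15, 11 had a mean normalized count below 50. Selplg, which encodes the VISTA receptor PSGL-1 and is also expressed by myeloid cells, was the exception among those called. It rose from 10945 ± 271 normalized counts in MDSC to 22225 ± 927 with blank NPs and 24663 ± 999 in CITED (SD, n = 4), by 1.02 and 1.17 on the log2 scale. Against MDSC-NP-Blk, Selplg in CITED rose by 0.15 (edgeR adjusted p = 0.0116). Lag3 (1.74, 1 to 10 counts in MDSC and 12 to 15 in CITED) and Btla (−1.62, 9 to 35 counts in MDSC and 2 to 10 in CITED) were called for CITED against MDSC at low counts, with edgeR adjusted p = 0.0464 and 0.0460. In all, 2 of 15 receptors rose and 2 fell for CITED against MDSC, 1 rose for MDSC-NP-Blk against MDSC, and 1 rose for CITED against MDSC-NP-Blk.

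Genes listed for surface turnover or for CD40 signaling numbered 13. For CITED against MDSC, 6 rose and 2 fell, and none was called at the fold threshold. Birc3, a gene of CD40 and NF-κB signaling, rose by 0.97 on the log2 scale. Cmtm6, whose product keeps PD-L1 from degradation, rose by 0.40, and Marchf1, whose product removes CD86 from the surface, by 0.48. Traf6 (−0.27) and Cmtm4 (−0.57) fell. For MDSC-NP-Blk against MDSC, 6 rose and 1 fell, led by Birc3 (0.94), Cmtm6 (0.35) and Traf1 (0.52), with Marchf8 (−0.20) falling. For CITED against MDSC-NP-Blk, 5 rose and 2 fell, led by Sppl2a (0.26), Marchf1 (0.25) and Marchf8 (0.32) upward and by Traf6 (−0.39) and Traf1 (−0.22) downward, and Cmtm6 had a value of 0.05 (edgeR adjusted p = 0.515). The study also stained PD-L1, VISTA and CD155 at the cell surface and measured PD-L1 mRNA by RT-qPCR. The surface stains were taken at a later time after conjugation than the RNA sequenced here. The stains and the RT-qPCR were not analysed here, so RNA was not compared with protein.

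**Figure D5:**
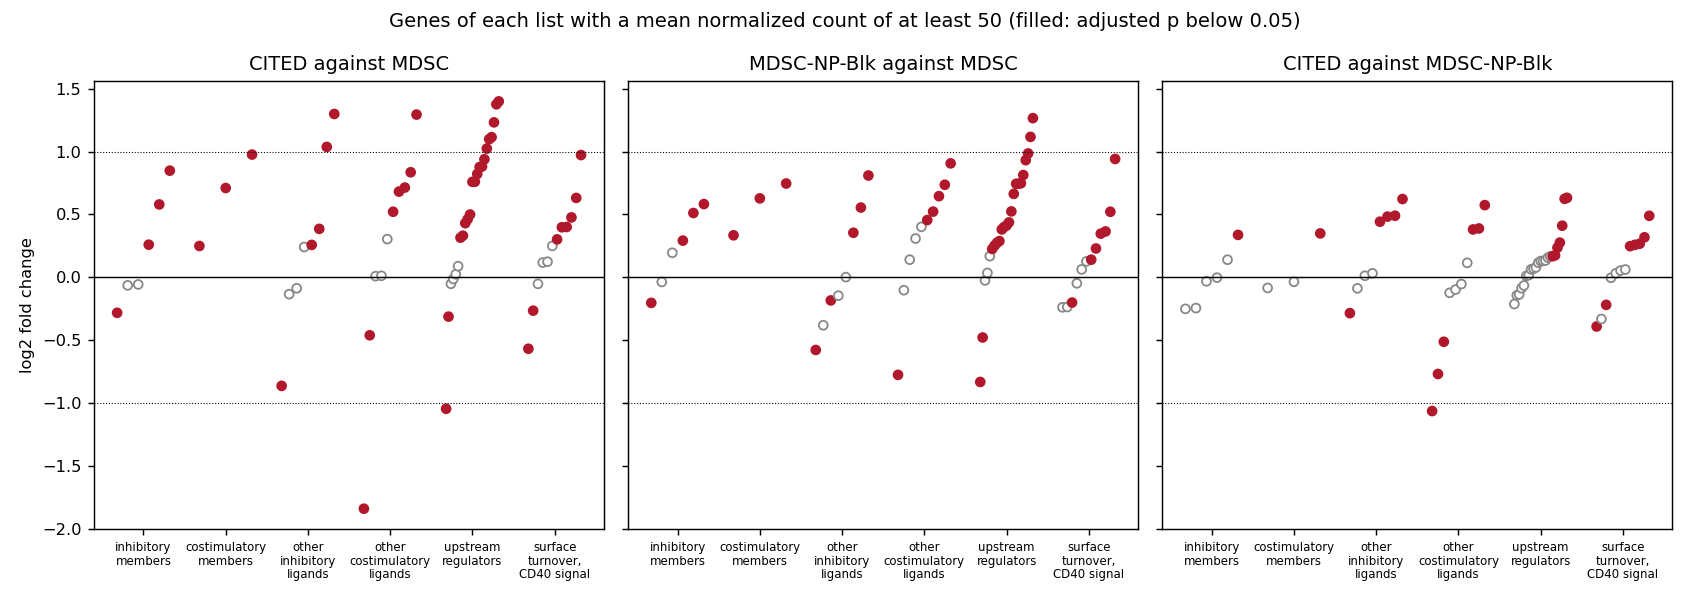
Log2 fold change (vertical axis) of each gene with a mean normalized count of at least 50 in the members and in 4 lists of related genes, for the 3 comparisons; filled points have an adjusted p below 0.05, and dotted lines mark 1 in either direction. Of the upstream regulators, 17 of 23 rose for CITED against MDSC and 7 of 23 for CITED against MDSC-NP-Blk, against 22.2% and 10.5% of all genes tested. The lists were chosen with earlier results of these data known. All points of the 2 comparisons with MDSC would shift down by about 0.27 and 0.26 with library totals alone.

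Markers of other cells that carry these molecules moved between the groups as well. The summed normalized counts of 9 macrophage markers were 24943 to 26639 in MDSC, 32215 to 35171 with blank NPs and 40145 to 41694 in CITED, with none at 0. In CITED against MDSC, 3 of them rose, among them Csf1r (1.00) and Cd68 (1.06), and 5 fell, among them Mrc1 (−2.81) and C1qa (−4.05). The 10 dendritic cell markers summed to 12194 to 12989 in MDSC, 8802 to 9262 with blank NPs and 10562 to 11516 in CITED. These sums were mostly Itgax, with means of 11032, 7278 and 9467. In CITED against MDSC, 2 of the markers rose and 3 fell. Those called at the fold threshold were Clec9a, which rose from a mean of 48.4 to 118, and Siglech, which fell. Siglech had 4 to 12 counts in MDSC libraries and 0 in CITED. The 5 B cell markers summed to 271 to 369 in MDSC, 175 to 251 with blank NPs and 71.5 to 100.3 in CITED, and all 5 fell in CITED against MDSC. The T and NK cell markers summed to 66.9 or less in every library, with Ncr1 at 0 throughout, and the erythroid markers to 67.4 or less. The mast cell and basophil markers summed to 6232 to 6620 in MDSC, 7260 to 8167 with blank NPs and 4806 to 5032 in CITED. The stromal and endothelial markers summed to 1616 to 1839, 1517 to 1724 and 1066 to 1143. This sum was mostly Pecam1, with means of 1643, 1591 and 1020. Col1a1, Col1a2, Cdh5 and Pdgfrb each had a mean below 50 in every group. The part of these cells in the values of the members was not tested.

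The patterns of the members over the 12 libraries were also set beside those of 10555 other genes with a mean normalized count of at least 50, by the root mean square difference of their log2 values after centering. The genes nearest to Cd274 were Ric8a (0.0535), Ptms (0.0561) and St3gal4 (0.0614), and those nearest to Cd80 were Pirb (0.0745), Grn (0.0808) and Rara (0.0814). Nudt4 (0.0336), Tes (0.0413) and Mapk3 (0.0414) were nearest to Vsir, and Eif3e (0.0776), Antxr2 (0.0780) and Clec4e (0.0796) to Cd86. Nearest to Pdcd1lg2 were Foxj3, Scaper and Drg1, to Pvr Errfi1, Dag1 and Gna15, to Nectin2 Stradb, Arhgef4 and Srsf4, and to Lgals9 Crebzf, Plin3 and Psmd11. No member was among the 3 genes nearest to another member, and Cd40 was left out for its low counts.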

How the data were processed

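Poly(A) RNA from 12 libraries, 4 per group, was sequenced as paired-end reads. The table the authors deposited holds raw counts, 1 whole number per symbol and library, which they obtained with Salmon 1.4.0 on GENCODE transcripts of GRCm39 and summed per gene with tximport in R 4.3.2. Groups and replicate numbers came from the sample titles, and all columns of the table were matched to samples. An entry with an empty symbol was left out.

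The members and gene lists were chosen with earlier results of these data known. Counts were tested in R 4.3.3 with edgeR 4.0.16 (TMM factors, glmQLFit and glmQLFTest with the group as the only term, all 12 libraries, robust estimation off), for symbols with at least 2 counts in all, with the Benjamini-Hochberg adjustment across all genes of a comparison. A change was counted at an adjusted p below 0.05, and called at the fold threshold where the absolute log2 fold change was also at least 1. DESeq2 1.42.0, other scalings and filters, a length correction (loess, span 0.5), a replicate block and fits without 1 library each were alternatives, and the pairs of MDSC-NP-Blk libraries were added after seeing the data. Simulated data were used to test the fit, and the outcome is not given here.

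The text names all members, the genes of the 5 lists of related genes that were called in a comparison or otherwise the 3 with the lowest p in each direction, and the 3 genes nearest in pattern to each member, except Icosl, for which they are not reported here. Cell type markers are given as sums and counts, and those named with values were chosen after their values were seen. Lengths, positions and promoters were from GENCODE release M39 on GRCm39, and the release the authors used is not given in the sources used here. A gene at 0 could still hold up to 3 counts, or 7.92e-06% to 1.46e-05% of a library, by counting error alone. Figures were drawn with Python 3.11.15 and matplotlib 3.10.9.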

Additional observations from a re-analysis of the deposited data

Results flagged for a closer look

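In 3 of 39 checks of a gene or ratio within a group of 4 libraries, the gap between an extreme library and its nearest neighbor exceeded the 95% critical value of Dixon's test for 4 values, and chance alone gives about 1 in 20. For Cd274, CITED replicate 1 had 5663 normalized counts, and the 3 others had 6202 to 6218. For Pvr, MDSC-NP-Blk replicate 4 had 454 normalized counts, and the 3 others had 386 to 391. For Cd40, CITED replicate 2 had 6.11 normalized counts, and the 3 others had 28.1 to 30.0.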

How the results depend on the processing

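The rises of Cd274, Cd80, Cd86 and Vsir over MDSC in both NP groups, and those of Cd274 and Cd80 from MDSC-NP-Blk to CITED, kept their direction and an adjusted p below 0.05 in every alternative run. Of the 10 members, 5 to 7 had an adjusted p below 0.05 for CITED against MDSC, and 6 or 7 for the blank NPs against MDSC, over the alternatives. Of all genes, 7349 to 8515 and 5902 to 7769 passed in these alternatives. Under a test against a log2 fold change of 0.5, which replaces the threshold on the estimate, 3 members were called for CITED against MDSC and 1 for the blank NPs against MDSC, in place of 0. The share of all genes called by that test is not given, so these counts have no background. When 1 library at a time was left out, 0 to 1 member was called for CITED against MDSC (1 without MDSC replicate 2 or CITED replicate 2), and 2 to 4 had an adjusted p below 0.05 between CITED and MDSC-NP-Blk (4 without CITED replicate 2, where Lgals9 and Nectin2 passed too). Of all genes, 1631 to 1772 were called and 3425 to 3999 passed, respectively, in these fits.

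Changes of sign were found among differences that were near 0 or that depended on scaling. With library totals alone, the log2 fold change became −0.015 for Pdcd1lg2 and −0.026 for Icosl (CITED against MDSC) and −0.067 for Nectin2 (blank NPs against MDSC), by the shift of all genes that this scaling brings. Between CITED and MDSC-NP-Blk, Vsir became 0.0012 with DESeq2, 0.0011 with RLE size factors, 0.040 with the length correction and 0.0445 with MDSC-NP-Blk replicates 2 and 3 alone. With replicates 1 and 4 alone, Cd86 became 0.071 and Cd40 −0.016 in that comparison, and Pvr became 0.0064 for the blank NPs against MDSC. The length correction turned the log2 ratio of Cd274 to Cd80 to 0.13, 0.089 and 0.036 for CITED against MDSC, the blank NPs against MDSC and CITED against the blank NPs. The cause was not tested.

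With libraries left out in turn, the ranges that crossed 0 were −0.17 to 0.035 for Nectin2 and −0.49 to 0.059 for Cd40 (CITED against MDSC), and −0.12 to 0.011 for Pvr (blank NPs against MDSC). Between CITED and MDSC-NP-Blk they were −0.084 to 0.041 for Pdcd1lg2, −0.0286 to 0.0142 for Vsir, −0.085 to 0.026 for Cd86, −0.24 to 0.42 for Cd40 and −0.073 to 0.027 for the log2 ratio of Cd274 to Cd80.

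Replicate numbers did not pair the libraries. Deviations of same-numbered libraries correlated with means of 0.0105, −0.0168 and 0.0510 over the 3 comparisons, and 1, 0 and 2 libraries correlated best with their own number. With a replicate block, 7, 7 and 2 members had an adjusted p below 0.05, as without it, and the block changed the call of no member. Among the members, Cd40 was the least deeply measured, with 5 to 42 counts per library.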
